A study of Homo sapiens with 37 samples.

Results

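Amino acid carriers of 7 solute carrier (SLC) families were followed in K562 cells with a disrupted ZBTB7A gene. The set was every gene whose symbol starts with SLC1A, SLC3A, SLC6A, SLC7A, SLC36A, SLC38A or SLC43A and goes on with a number, leaving out pseudogenes and antisense genes. The rule reads symbols only and uses no value of these libraries. It held 48 of the 32055 genes of the count table: 6 of family SLC1, 2 of SLC3, 13 of SLC6, 10 of SLC7, 4 of SLC36, 10 of SLC38 and 3 of SLC43. SLC1A1, the glutamate carrier EAAT3, has no value below because it was not analysed here. K562 is an erythroleukemia line of human origin, long established in culture. KO cells had been electroporated with the plasmid px458, which carries Cas9 and GFP, with 1 of 2 guide RNAs against ZBTB7A, a zinc finger transcription factor that acts mostly as a repressor. Control cells had received the same plasmid without a guide. GFP-positive single cells had been sorted and grown into clones, and no other allele or agent is given for either group. There were 26 KO and 11 Control libraries, numbered here KO 1 to 26 and Control 1 to 11. The numbers are names only: the labels give no clone, guide, day or replicate number, so libraries of a group may share a clone, and p-values measure only the spread between these libraries.

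Amino acids are charged or polar and cross membranes almost only through carriers. Many of the carriers are exchangers, so that a cell imports leucine, cystine or arginine by letting another amino acid out, while sodium-coupled carriers of families SLC1, SLC6 and SLC38 build up the pool that the exchangers spend. Several SLC7 proteins are light chains that reach the cell surface only when bound to a heavy chain of family SLC3. Carriers of families SLC36 and SLC38 also sit on the lysosome, where they feed and report to mTORC1, the kinase complex that couples growth to amino acid supply. Red blood cell precursors need glycine in addition, since heme synthesis begins with it.

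RNA was measured by bulk SCRB-seq, a method that marks every reverse-transcribed molecule with a random tag, the unique molecular identifier or UMI, and sequences 3′ ends, so a count stands for captured molecules and does not scale with transcript length. Totals ranged from 563235 to 4710809 UMIs in the Control libraries (median 3518944) and from 1070250 to 4270901 in the KO libraries (median 2030965), with Control 7 the shallowest. ZBTB7A mRNA itself differed by 0.12 ± 0.09 (log2 fold change ± SE, edgeR adjusted p = 0.331), and reads of the 3′ end do not show an edit in the coding sequence, so this value does not check the labels. KO 18 was the KO-labelled library nearest to the controls: among the tested transporters it lay outside the range of the Control libraries in 3 genes, while each of the other KO libraries did so in 8 to 17. Of the erythroid markers expected of K562, 9 of 10 were in the table, with a summed level of 3870 to 8330 CPM (the UMIs of a gene scaled to a common library total) in Control and 2900 to 9460 in KO libraries. Granulocytic and monocytic markers, 3 of 8 in the table, summed to 0.734 to 5.56 CPM in Control and at most 9.26 CPM in KO libraries. Megakaryocytic markers, 4 of 5 in the table, summed to 0.734 to 8.15 CPM in Control and 2.69 to 60.4 CPM in KO libraries, mostly GP1BA, and lymphoid markers, 4 of 5 in the table, to 15.9 to 72 CPM and 1.4 to 30.6 CPM, mostly CD3D. The part of these marker genes in the differences below was not tested.

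In this cell line 4 genes made up most of the transporter mRNA. The 48 genes together held 218014 UMIs, of which SLC1A5 took 24.2%, SLC7A5 20.5%, SLC3A2 13.1% and SLC38A2 12.5%, 70.3% in all. These are the main plasma membrane carriers for glutamine (SLC1A5), for leucine and other large neutral amino acids (SLC7A5 with its heavy chain SLC3A2) and for small neutral amino acids (SLC38A2). By family, SLC7 held 30.9% of the transporter UMIs, SLC1 27.3%, SLC38 22.4%, SLC3 13.1%, SLC6 3.52%, SLC43 2.11% and SLC36 0.685%. The 48 genes took 0.224% to 0.276% of all UMIs in the Control libraries (median 0.244%) and 0.188% to 0.278% in the KO libraries (median 0.208%), so the ranges of the groups overlapped. Levels per library are given below as log2 CPM after TMM scaling with a prior count of 2, which puts a gene without a UMI near -0.35.

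**Figure D1:**
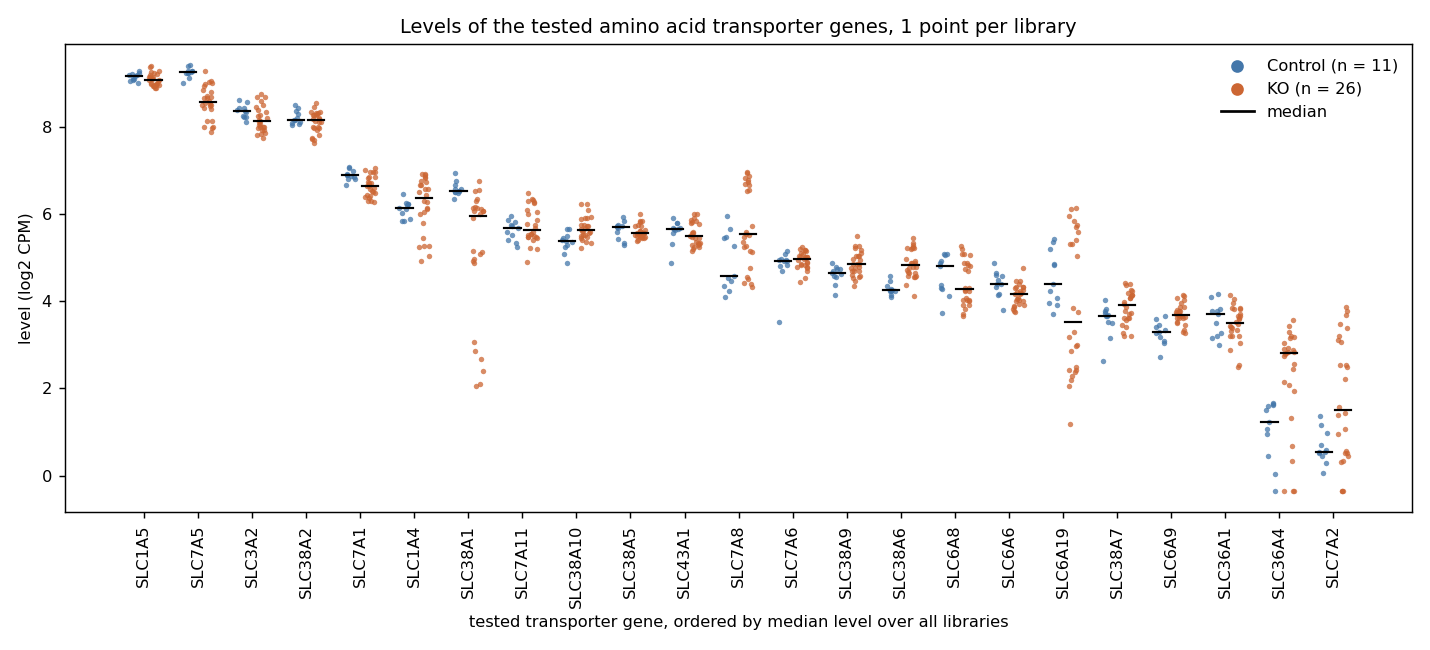
Level of each tested amino acid transporter gene in log2 CPM on the vertical axis, with 1 point per library, Control (n = 11) in blue and KO (n = 26) in orange, and black bars at the medians. SLC1A5, SLC7A5, SLC3A2 and SLC38A2 sit at the top in both groups, and the KO points of SLC38A1, SLC6A19, SLC7A8, SLC36A4 and SLC7A2 spread over several log2 units.

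In KO libraries some transporters were higher and others lower, and families SLC6, SLC7 and SLC38 each held genes of either kind. Of the 48 genes, 23 had enough UMIs to be tested, and 11 of these differed between KO and Control at an adjusted p below 0.05, which is 47.8% against 33.8% of the 10661 genes tested in the whole table. SLC7A2, SLC36A4, SLC7A8, SLC38A6, SLC6A9, SLC38A10 and SLC38A9 were higher in KO, 30.4% of the tested transporters against 17.7% of all genes, and SLC38A1, SLC7A5, SLC6A6 and SLC7A1 were lower, 17.4% against 16.2%. An absolute log2 fold change above 0.5 as well was found for 6 of them, 4 higher and 2 lower, or 26.1% against 10.2% of all genes. SLC36A4 and SLC7A2 reached the minimum level for a test, 4.39 CPM, in no Control library and in 17 and 11 KO libraries, so only a high KO group could bring them into the test. Among the 21 other tested transporters, 9 passed (42.9%), 5 higher and 4 lower, and 4 had the fold as well (19%). No share over all genes was taken with the same restriction, so these shares have no like background. For none of the 23 genes were the groups without overlap, against 0.281% of all genes. The median log2 fold change was -0.03 over the tested transporters and -0.0046 over all genes, while the median absolute log2 fold change was 0.25 for the transporters and 0.15 for all genes.

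**Figure D2:**
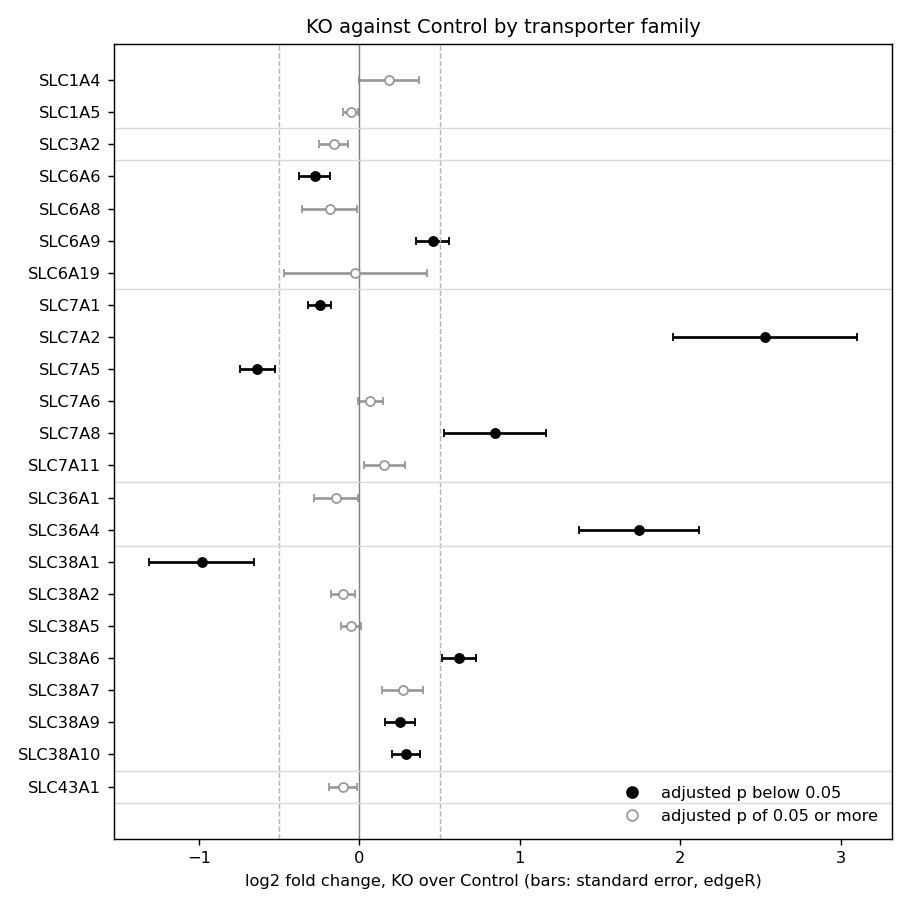
Log2 fold change of KO over Control (horizontal axis) for the tested transporters, grouped by family from SLC1 at the top to SLC43 at the bottom, with bars for the standard error. Filled points are the 11 genes with an edgeR adjusted p below 0.05, open points the other 12, and dashed lines mark -0.5 and 0.5.

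SLC7A5 fell and its heavy chain SLC3A2 did not pass the test. SLC7A5, the light chain of LAT1, which brings leucine into the cell, lies at chr16:87830023-87869507 (GRCh38, minus strand). Its level ran from 9.01 to 9.42 log2 CPM in the Control libraries (median 9.26) and from 7.89 to 9.29 in the KO libraries (median 8.58). Every KO library but 4 lay under all Control libraries, and the highest KO value was that of KO 18. The fitted log2 fold change was -0.64 ± 0.11 (edgeR adjusted p = 1.91e-05), a level 1.55-fold higher in Control. SLC7A5 has near-identical pseudogene copies (SLC7A5P1 and SLC7A5P2), so how its reads were shared out with them is uncertain. In a bulk library, fewer cells that carry an mRNA and less of that mRNA per cell cannot be told apart, here and for every gene below.

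SLC3A2, the heavy chain also known as CD98hc, is at chr11:62856004-62888880 (plus strand). It measured 8.13 to 8.63 log2 CPM in Control libraries (median 8.36) and 7.75 to 8.76 in KO libraries (median 8.13). The KO values reached past the Control range on both sides, 13 libraries below it and 3 above it. Its fold change of -0.16 ± 0.09 did not pass (edgeR adjusted p = 0.174), while among libraries with AT-rich barcodes alone it was -0.35 and passed (edgeR adjusted p = 0.000827).

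Counted against the heavy chain, SLC7A5 mRNA was scarcer in most KO libraries, and SLC7A11 and SLC7A8 mRNA more plentiful at the median. There were 1.60 to 2.08 UMIs of SLC7A5 for each UMI of SLC3A2 in Control libraries (median 1.85) and 0.883 to 1.94 in KO libraries (median 1.43). This ratio was below that of every Control library in 22 of 26 KO libraries, and the highest KO ratio was again that of KO 18. SLC7A11 is the light chain of the cystine and glutamate exchanger xCT, which supplies cysteine for glutathione. Its ratio to SLC3A2 was 0.119 to 0.164 in Control (median 0.154) and 0.119 to 0.254 in KO libraries (median 0.187), above every Control library in 18. The ratio of SLC7A8, the light chain of LAT2, was 0.0543 to 0.205 in Control (median 0.0669) and 0.0742 to 0.435 in KO libraries (median 0.149), above every Control library in 10. The 5 light chains of SLC3A2 that were in the table, SLC7A6 and SLC7A7 included, together gave 1.92 to 2.44 UMIs per SLC3A2 UMI in Control and 1.49 to 2.36 in KO libraries, so the mRNA of light chains outnumbered that of the heavy chain in every library. These ratios are descriptions of UMI counts and were not tested.

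**Figure D3:**
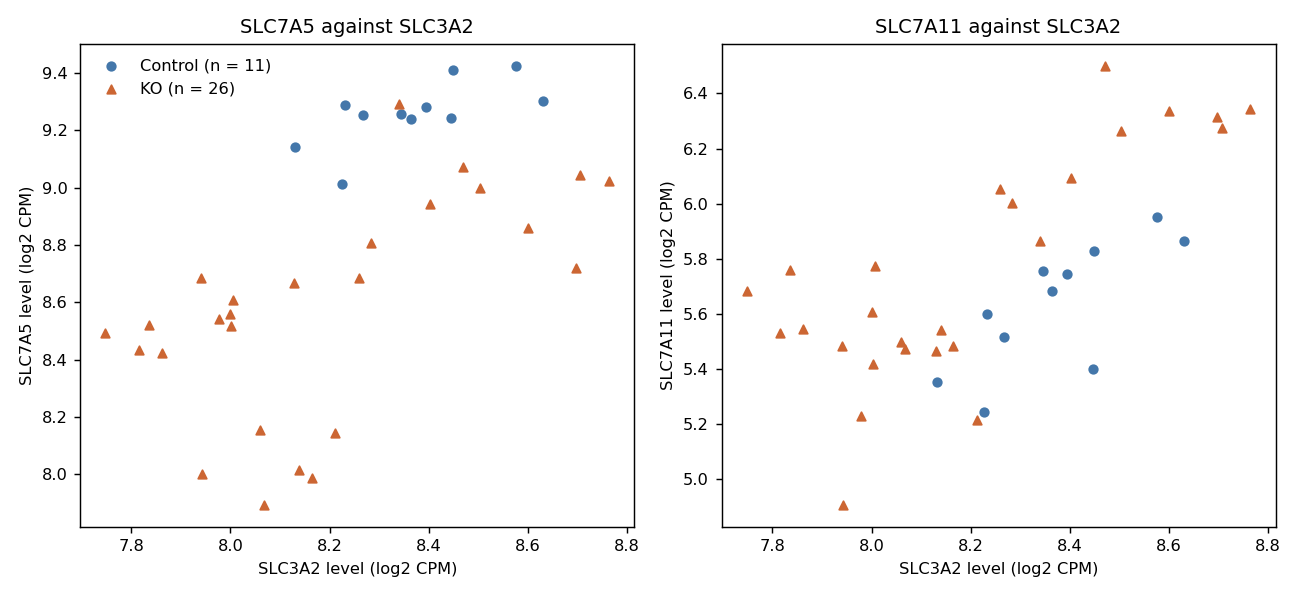
Level of the light chains SLC7A5 (left) and SLC7A11 (right) in log2 CPM on the vertical axis against the level of the heavy chain SLC3A2 in log2 CPM on the horizontal axis, with 1 point per library, Control (n = 11) as blue circles and KO (n = 26) as orange triangles. For SLC7A5, 22 KO points lie under every Control point, 6 of them apart at 7.89 to 8.15.

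SLC7A8 rose in KO libraries, with a wide spread in both groups. It exchanges neutral amino acids, glycine and alanine among them, and lies at chr14:23125295-23183674 (minus strand). Its level was 4.09 to 5.96 log2 CPM in Control (median 4.58) and 4.33 to 6.97 in KO libraries (median 5.54), and 10 KO libraries, at 6.54 and above, exceeded every Control library. The log2 fold change was 0.85 ± 0.32 (edgeR adjusted p = 0.0367). This call was lost with limma-voom (0.60, adjusted p = 0.119), without a filter on low counts (0.83, edgeR adjusted p = 0.0914) and among AT-rich barcodes (0.90, edgeR adjusted p = 0.104). It was also lost when any of Control 1, 2, 5, 7, 10 and 11 or KO 5 and 10 was left out, with an edgeR adjusted p of at most 0.0683. A gene without a symbol on the same strand overlaps its 3′ end, so the source of some reads is uncertain.

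SLC7A11, at chr4:138164097-138242349 (minus strand), measured 5.24 to 5.95 log2 CPM in Control and 4.91 upwards in KO libraries, with 9 KO libraries above and 3 below all controls. Its log2 fold change of 0.15 ± 0.13 did not pass (edgeR adjusted p = 0.371) and had the opposite sign among AT-rich barcodes (-0.15). The antisense gene SLC7A11-AS1 overlaps its 3′ end, and the sources used here do not say whether strand was used in counting. SLC7A6, a light chain that exchanges cationic for neutral amino acids, had a log2 fold change of 0.07 ± 0.08 (edgeR adjusted p = 0.536). Its relative SLC7A7 was found at 53 UMIs in all and the other heavy chain, SLC3A1, known from kidney and intestine, at 106 UMIs, too few for a test.

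Promoters of SLC7A5, its heavy chain SLC3A2, SLC38A1 and SLC1A4 are printed from RefSeq (GRCh38.p14), 5′ to 3′ on the strand of the gene. SLC38A1 and SLC1A4 were low in the same 6 KO libraries, as described below. SLC7A8 was lowest in these 6 as well, and its promoters are not printed. SLC7A5 and SLC38A1 passed the test of KO against Control, while SLC3A2 and SLC1A4 did not. Each window is 300 bases long and ends just inside an annotated transcript. Capitals mark 2 motifs searched on both strands, TGATGNAA, a core that ATF4 binds together with C/EBP partners, and GACCC, a core that ZBTB7A binds at the globin genes. The windows are chr16:87869458-87869757 (minus strand) for SLC7A5, chr11:62881449-62881748 (plus) for SLC3A2, chr2:64989149-64989448 (plus) for SLC1A4 and chr12:46266467-46266766 (minus) for SLC38A1.
SLC7A5: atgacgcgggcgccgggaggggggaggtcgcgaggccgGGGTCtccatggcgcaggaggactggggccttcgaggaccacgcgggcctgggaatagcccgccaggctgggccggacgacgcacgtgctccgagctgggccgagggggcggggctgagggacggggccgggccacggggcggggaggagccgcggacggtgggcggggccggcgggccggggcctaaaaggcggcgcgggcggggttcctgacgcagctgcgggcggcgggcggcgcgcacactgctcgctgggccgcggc
SLC3A2: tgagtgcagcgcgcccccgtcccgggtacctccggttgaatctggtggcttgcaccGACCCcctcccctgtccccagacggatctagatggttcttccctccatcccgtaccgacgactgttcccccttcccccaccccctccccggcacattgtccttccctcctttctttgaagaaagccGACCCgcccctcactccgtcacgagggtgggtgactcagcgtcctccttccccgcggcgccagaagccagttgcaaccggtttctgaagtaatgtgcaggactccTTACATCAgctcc
SLC1A4: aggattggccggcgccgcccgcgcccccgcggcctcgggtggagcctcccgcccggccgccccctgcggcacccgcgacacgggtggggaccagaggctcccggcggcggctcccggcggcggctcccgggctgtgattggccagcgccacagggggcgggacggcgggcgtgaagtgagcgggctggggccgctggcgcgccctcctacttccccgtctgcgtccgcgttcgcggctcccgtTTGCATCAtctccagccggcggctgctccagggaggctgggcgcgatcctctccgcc
SLC38A1: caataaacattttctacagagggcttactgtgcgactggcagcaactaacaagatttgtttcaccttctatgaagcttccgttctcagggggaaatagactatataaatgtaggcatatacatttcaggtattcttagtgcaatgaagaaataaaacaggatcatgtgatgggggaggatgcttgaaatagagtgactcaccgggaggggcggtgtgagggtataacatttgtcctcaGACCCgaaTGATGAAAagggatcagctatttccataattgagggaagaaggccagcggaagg

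TGATGNAA or its reverse complement was present in the printed windows of SLC3A2, SLC1A4 and SLC38A1, which were picked because they hold it: the table has 3 windows for SLC3A2, 2 for SLC1A4 and 2 for SLC38A1, and none of the others holds these letters. They were not in the window of SLC7A5 either, nor in any window of SLC7A8. Promoters of chromosome 8, where SLC7A2 lies, were left out of every motif count given here. Over the other promoters of the table, 37 of the 48 transporters matched by symbol, many with several starts. Of these, 6 had TGATGNAA in at least 1 window, against 4.46% of 27305 genes and 3.62% of 35116 promoters. Among the 20 tested transporters with a sequence, it was in windows of SLC1A4, SLC1A5, SLC38A1, SLC3A2 and SLC7A1. Of these 5, SLC38A1 and SLC7A1 passed the test, both lower in KO. Over all tested transporters 47.8% passed, and over all genes 33.8%. A link between the motif and the differences was not tested. GACCC was in windows of 23 of the 37 transporters and of 51.8% of all genes, or 47.6% of promoters, and of 15 of the 20 tested transporters. In the printed windows the 2 motifs did not overlap each other. A match is a description of letters and not a binding site.

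Of the carriers of cationic amino acids, SLC7A1 fell. SLC7A1, the main arginine and lysine carrier of most cells, lies at chr13:29509414-29595688 (minus strand). It ran from 6.67 to 7.09 log2 CPM in Control (median 6.90) and from 6.28 to 7.08 in KO libraries (median 6.65), where 14 libraries were below all controls. It fell by 0.25 ± 0.07 on the log2 scale (edgeR adjusted p = 0.00658), and KO 18 stood at 7.02. Among AT-rich barcodes the fall was larger, at -0.42 (edgeR adjusted p = 4.87e-05).

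SLC7A2, its inducible relative on chromosome 8, was close to the detection limit in every Control library, at 1 to 5 UMIs (median 3). In KO libraries it ranged from 0 to 41 UMIs (median 6.5). Its level was 0.06 to 1.37 log2 CPM in Control and -0.35 to 3.87 in KO libraries, of which 15 were above and 3 below all controls. Of the KO libraries, 12 had more than 2 log2 CPM, and KO 12, 18 and 24 had no UMI at all. The fitted log2 fold change was 2.53 ± 0.57 (edgeR adjusted p = 7.59e-04), against 1.65 with limma-voom (adjusted p = 0.0209) and 1.72 with a prior count of 2. A gene this low can be tested only because part of the KO libraries have it, and it fell out of the test in 11 of the 37 fits with a library left out and among AT-rich barcodes.

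Neutral amino acid carriers of family SLC1 did not pass the test. SLC1A5 (ASCT2, chr19:46774883-46788594, minus strand) was the most abundant transporter and the least variable of the 4 most abundant ones, at 9.03 to 9.29 log2 CPM in Control and 8.90 to 9.40 in KO libraries. Its log2 fold change was -0.05 ± 0.05 (edgeR adjusted p = 0.397). SLC1A4 (ASCT1, chr2:64988477-65023865, plus strand), a serine and alanine carrier, had medians of 6.14 log2 CPM in Control and 6.37 in KO libraries. Its KO libraries stretched from 4.93 to 6.93, beyond the Control range of 5.85 to 6.46 on both sides, 12 above and 7 below, around a log2 fold change of 0.19 ± 0.19 (edgeR adjusted p = 0.469). LINC02245, on the other strand, overlaps the 3′ end of SLC1A4.

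In family SLC38, sodium-coupled carriers of glutamine and other small neutral amino acids, SLC38A1 was lower in KO and SLC38A6, SLC38A9 and SLC38A10 were higher. SLC38A1 (SNAT1, chr12:46183063-46270017, minus strand) kept within 6.36 to 6.94 log2 CPM in Control libraries (median 6.53). In KO libraries it ranged from 2.05 to 6.78 (median 5.96). The KO libraries were below all Control libraries in 22 of 26 cases and above them in none, with KO 18 the highest. The log2 fold change was -0.98 ± 0.33 (edgeR adjusted p = 0.0188), a level 1.98-fold higher in Control, and it was -1.09 among AT-rich barcodes (edgeR adjusted p = 0.0247) and -1.62 with limma-voom (adjusted p = 0.000975). The variation around it was large, with a biological coefficient of variation of 0.726, which 127 of all genes tested exceeded. In UMIs, SLC38A1 counted 45 to 467 in the Control group and 6 to 274 in the KO group.

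SLC38A2 (SNAT2), which many cells induce when amino acids run short, had a log2 fold change of -0.10 ± 0.08 and did not pass (edgeR adjusted p = 0.309), with 10 KO libraries below and 1 above all controls. SLC38A5, a glutamine, serine and glycine carrier of red cell precursors, differed by -0.05 ± 0.06 (edgeR adjusted p = 0.573), and its KO range of 5.38 to 6.01 log2 CPM nearly coincided with the Control range of 5.30 to 5.93. SLC38A6 (chr14:60981114-61114316, plus strand), a less studied member of the family, rose from 4.10 to 4.59 log2 CPM in Control (median 4.26) to 4.13 to 5.45 in KO libraries (median 4.83). In KO, 20 libraries were above all controls and none below, and the lowest was KO 18. Its log2 fold change of 0.62 ± 0.11 (edgeR adjusted p = 1.85e-05) was 0.65 among AT-rich barcodes (edgeR adjusted p = 0.000537). SLC38A10 rose by 0.29 ± 0.09 (edgeR adjusted p = 0.0091), a call lost among AT-rich barcodes (0.25, edgeR adjusted p = 0.0926) and after thinning all libraries to equal depth (0.25, edgeR adjusted p = 0.156).

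Of the lysosomal carriers, SLC38A9 rose in KO libraries, though several settings ended its call. SLC38A9, which senses lysosomal arginine for mTORC1, rose by 0.25 ± 0.09 (edgeR adjusted p = 0.0332), with 11 KO libraries above all controls and none below. This call was lost with limma-voom (0.22, adjusted p = 0.0517), after thinning (0.33, edgeR adjusted p = 0.0927), without a filter on low counts (0.24, edgeR adjusted p = 0.0845) and without Control 4 or 8 (edgeR adjusted p of at most 0.0739). SLC38A7, which exports glutamine and asparagine from the lysosome, also had 11 KO libraries above all controls, but its log2 fold change of 0.27 ± 0.13 did not pass (edgeR adjusted p = 0.0963). SLC36A1 (PAT1), a proton-coupled exporter of small neutral amino acids, differed by -0.15 ± 0.14 (edgeR adjusted p = 0.436).

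SLC36A4 (PAT4, chr11:93144174-93197991, minus strand), a proline and tryptophan carrier of high affinity, was low in Control libraries and reached the minimum level for a test in KO libraries only, so the test could come out in no other direction. It had 0 to 11 UMIs in Control libraries (median 6) and 0 to 41 in KO libraries (median 13), although the KO libraries were mostly shallower. On the log2 CPM scale the Control libraries ran from -0.35 to 1.67 (median 1.22) and the KO libraries from -0.35 to 3.56 (median 2.81), 20 of them above all controls. KO 10, 22 and 25 and Control 7 had no UMI. The fitted log2 fold change was 1.74 ± 0.37 (edgeR adjusted p = 3.8e-04), and it stayed between 1.60 and 1.84 whichever library was left out. It was smaller with limma-voom (1.57, adjusted p = 0.0154) and with a prior count of 2 (1.38). Too few AT-rich libraries reached the minimum level for a test within that class.

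In family SLC6 the glycine carrier SLC6A9 rose and the taurine carrier SLC6A6 fell. SLC6A9 (GlyT1, chr1:43991500-44031467, minus strand) supplies the glycine that heme synthesis begins with. It measured 2.71 to 3.66 log2 CPM in Control (median 3.29) and 3.28 to 4.14 in KO libraries (median 3.69), 16 of them above all controls. Its log2 fold change was 0.46 ± 0.10 (edgeR adjusted p = 5.1e-04), and 0.43 among AT-rich barcodes (edgeR adjusted p = 0.00961). SLC6A6 (TauT) fell by 0.28 ± 0.10 (edgeR adjusted p = 0.0255), with only 2 KO libraries below all controls. That call was lost with library size alone as the scaling (-0.25, edgeR adjusted p = 0.0581), among AT-rich barcodes (-0.29, edgeR adjusted p = 0.0999), after thinning (-0.03, edgeR adjusted p = 0.934) and without Control 2, 6, 10 or 11 (edgeR adjusted p of at most 0.0998). The genes CCDC24 and GRIP2 overlap the 3′ ends of SLC6A9 and SLC6A6 on the other strand.

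SLC6A8, the creatine carrier, had a log2 fold change of -0.19 ± 0.17 (edgeR adjusted p = 0.432), and a near-identical pseudogene, SLC6A10P, makes its counts uncertain. SLC6A19, the neutral amino acid carrier of kidney and intestine, is named after its values were seen. It was present in every library, at 8 to 182 UMIs in Control and 3 to 174 in KO libraries, and spread more than any other tested transporter except SLC7A2 (biological coefficient of variation 0.885, exceeded by 43 of all genes). Its KO levels of 1.19 to 6.15 log2 CPM enclosed the Control levels of 3.72 to 5.44, with 13 libraries below and 7 above, and the log2 fold change was -0.03 ± 0.45 (edgeR adjusted p = 0.98), a sign that other settings turned.

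Of family SLC43, SLC43A1 (LAT3), a sodium-independent leucine carrier, had a log2 fold change of -0.10 ± 0.09 (edgeR adjusted p = 0.379). SLC43A2, its close relative, was found at 22 UMIs in all, and SLC43A3, which carries purine nucleobases, at 171 UMIs. In total 25 of the 48 transporters were too low for a test, and 13 of these had at most 10 UMIs over all 37 libraries, among them the glial glutamate carrier SLC1A3 at 1 UMI. Differences between KO and Control in such genes were not tested at these depths.

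The KO libraries did not move evenly. On a heat map of the tested transporters, the levels of some genes came in blocks of libraries rather than as a uniform shift. For SLC38A1 the KO values left gaps between 3.06 and 4.88 and between 5.15 and 5.91 log2 CPM. The 6 libraries under the lower gap, KO 6, 14, 15, 16, 17 and 26, had 6 to 24 UMIs of SLC38A1. The 6 KO libraries lowest in SLC1A4, at 4.93 to 5.46 log2 CPM, and the 6 lowest in SLC7A8, at 4.33 to 4.77, were these same 6. SLC6A14, a broad carrier of neutral and cationic amino acids that is named after its values were seen, had 11 to 28 UMIs in each of them and at most 5 in any other KO library. Not every gene kept to this block. Among the 6 lowest KO libraries for SLC6A19 were 5 of the block, for SLC38A5 and SLC6A9 only 1, and for SLC7A5 and SLC38A2 0.

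The next 6 libraries by SLC38A1 level, KO 4, 5, 10, 22, 24 and 25, lay between 4.88 and 5.15 log2 CPM. They were also the 6 lowest KO libraries for SLC36A4, with 0 to 3 UMIs, for SLC7A5, at 7.89 to 8.15 log2 CPM, and for SLC38A2, at 7.63 to 7.94. For SLC6A19 they were the 6 highest, at 5.72 to 6.15 log2 CPM. The remaining 14 KO libraries had SLC38A1 at 5.91 to 6.78 log2 CPM, and SLC7A5 at 8.42 to 9.29. These blocks were read from the levels themselves, so they are a description, were not tested and do not show which libraries share a clone. The lowest 6 held 2 AT-rich, 3 GC-rich and 1 balanced barcode and had 1752354 to 4214780 UMIs, and the next 6 held 5 AT-rich and 1 GC-rich barcode and had 1225590 to 2052701 UMIs.

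**Figure D4:**
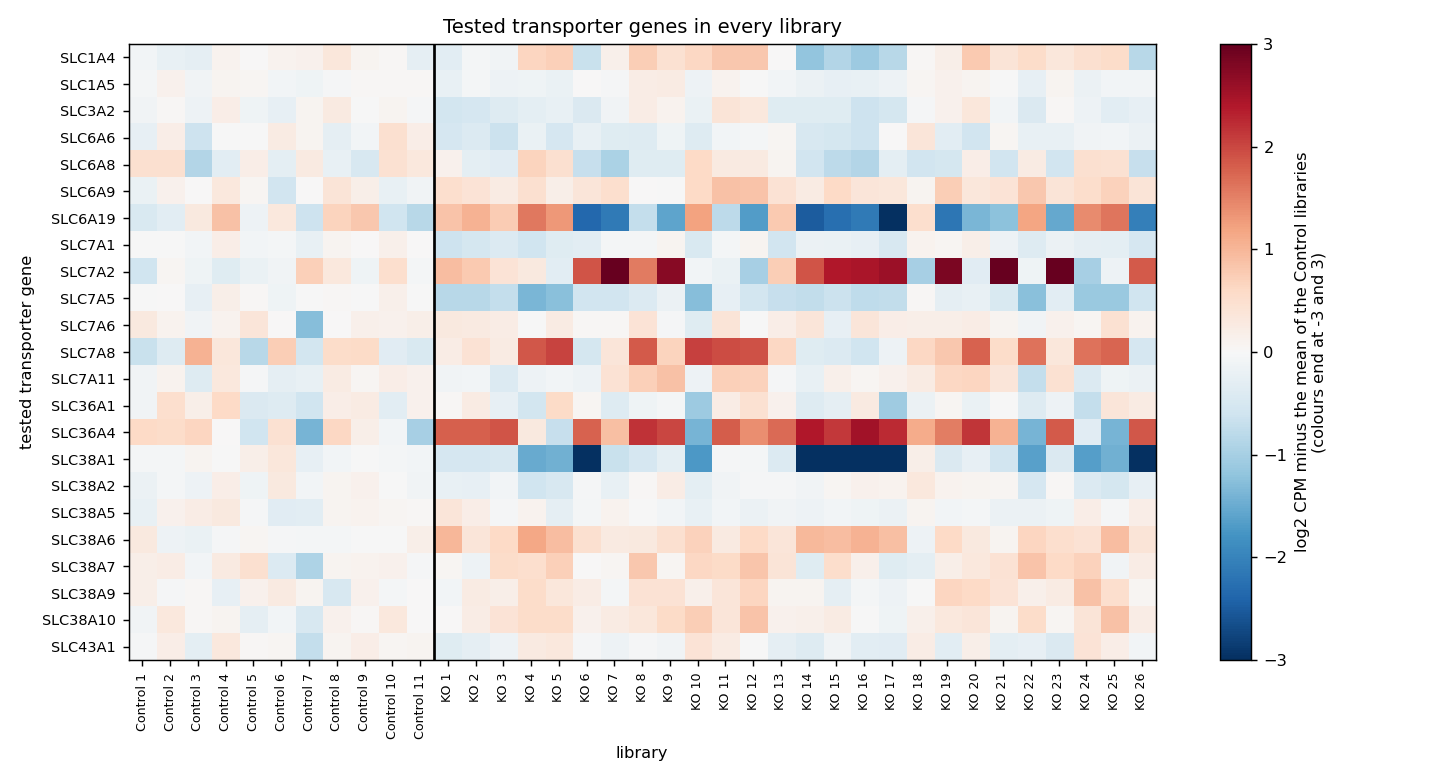
Level of each tested transporter (rows, grouped by family) in each library (columns, Control 1 to 11 left of the line and KO 1 to 26 right of it), as log2 CPM minus the mean of the Control libraries, with colours ending at -3 and 3. SLC38A1 is dark blue in KO 6, 14, 15, 16, 17 and 26, and SLC36A4 is pale or blue in KO 4, 5, 10, 22, 24 and 25 where most other KO libraries are red.

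The Control libraries split too. SLC7A8 lay at 4.09 to 4.58 log2 CPM in Control 1, 2, 5, 7, 10 and 11 and at 5.27 to 5.96 in Control 3, 4, 6, 8 and 9. The same division of libraries appeared in SLC6A8, at 4.81 to 5.10 log2 CPM in the former and 3.72 to 4.38 in the latter, and in SLC6A19, at 3.72 to 4.40 and 4.83 to 5.44. SLC6A14 had 4 to 27 UMIs in the former 6 libraries and 0 to 1 in the latter 5. In these 4 genes the Control libraries formed 2 separate ranges, and the 6 Control libraries with low SLC7A8 are those whose removal ended its call.

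**Figure D5:**
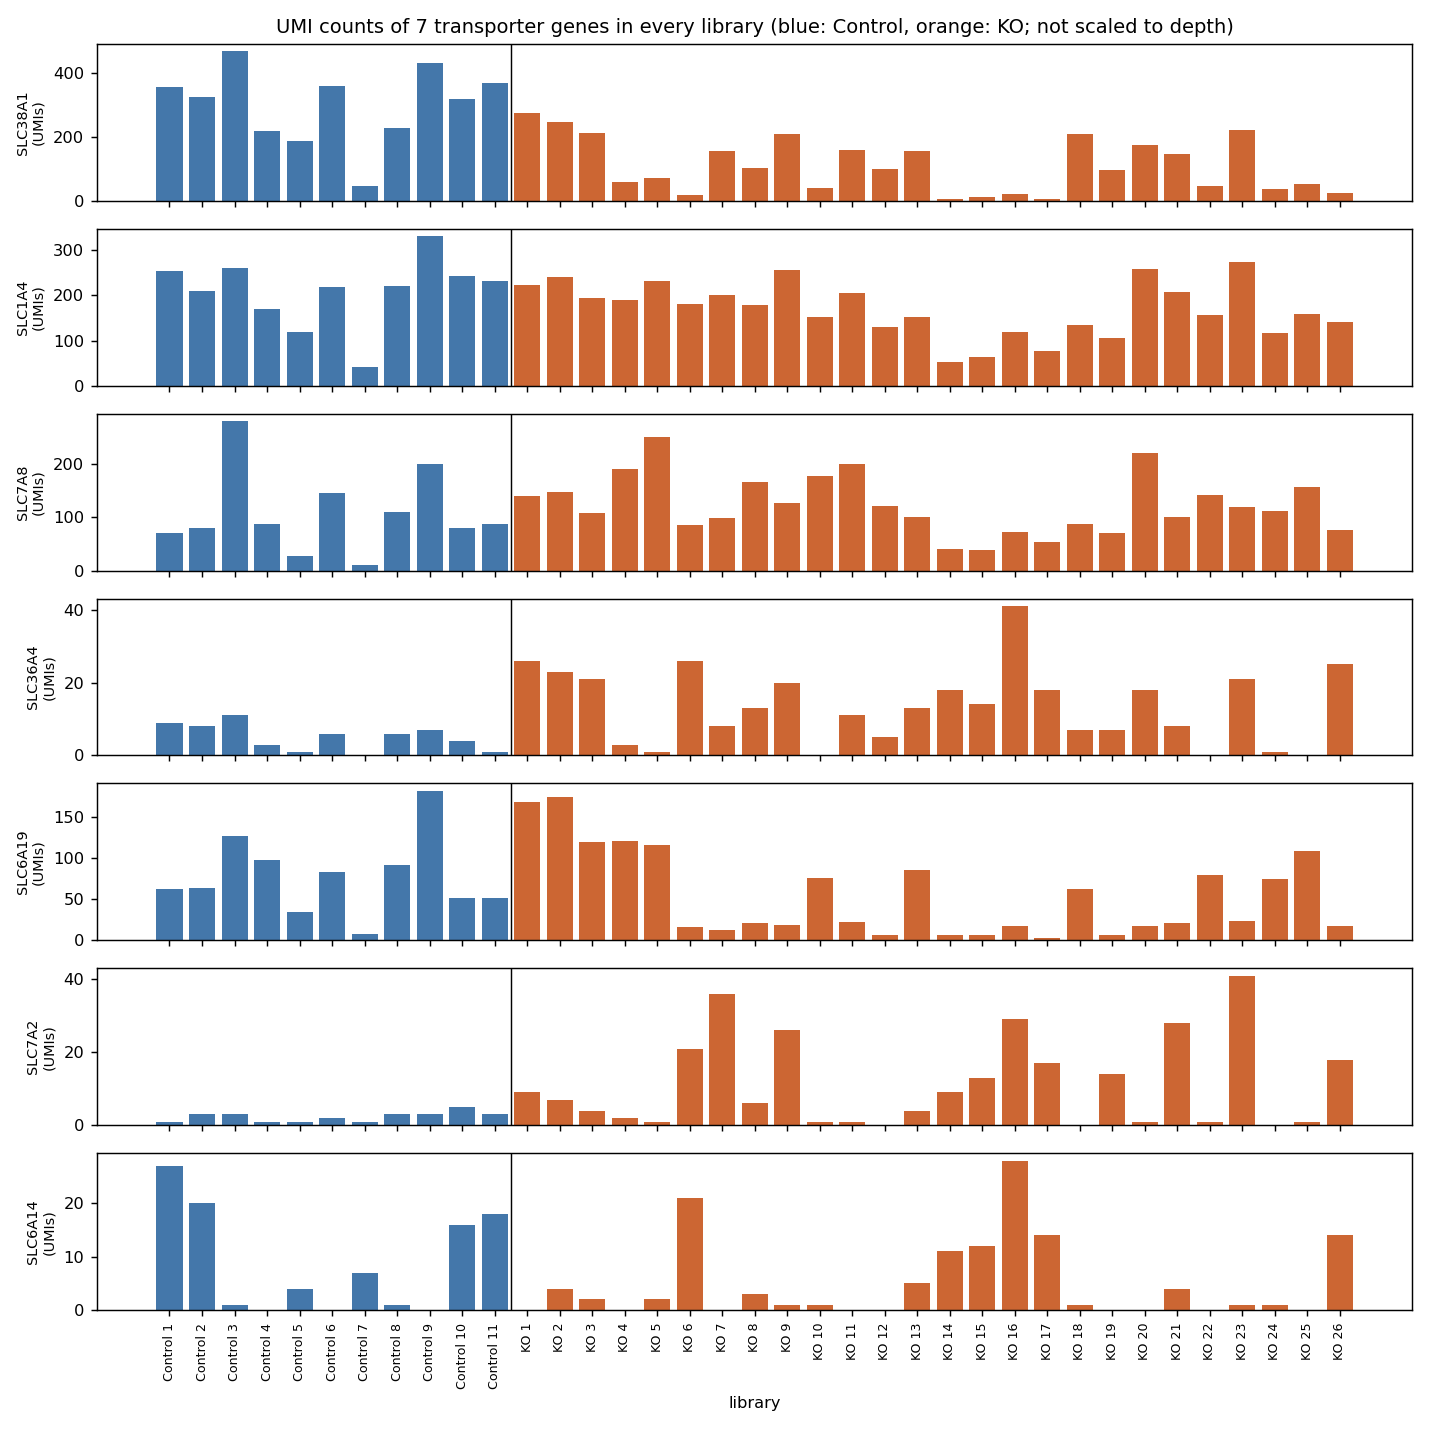
UMI counts (vertical axes, not scaled to depth) of SLC38A1, SLC1A4, SLC7A8, SLC36A4, SLC6A19, SLC7A2 and SLC6A14 in every library, Control in blue and KO in orange. SLC6A14 has 11 to 28 UMIs in KO 6, 14, 15, 16, 17 and 26 and at most 5 in the other KO libraries, and SLC7A2 stays at 1 to 5 UMIs in the Control libraries.

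Genes around the transporters were read from 5 lists. Of 16 other amino acid carriers of lysosome, mitochondria and plasma membrane, 15 were tested, of which 4 rose (26.7%, against 17.7% of all genes) and 1 fell (6.67%, against 16.2%), with a median log2 fold change of 0.04. The largest rises were those of SLC66A1, a lysosomal carrier of cationic amino acids (0.56 ± 0.16, edgeR adjusted p = 0.00519), and CTNS, which releases cystine from the lysosome (0.52 ± 0.10, edgeR adjusted p = 8.55e-05), whose call was lost after thinning (0.38, edgeR adjusted p = 0.123). SLC66A1 was above all controls in 18 KO libraries and below them in 5, while CTNS was above them in only 1. SFXN1, the mitochondrial serine carrier, fell by 0.13 ± 0.05 (edgeR adjusted p = 0.0308), a call that 6 of the libraries could end when left out, Control 1, 2, 5, 10 and 11 and KO 21 (edgeR adjusted p of at most 0.129). It was also lost with library size alone (edgeR adjusted p = 0.103), without a filter on low counts (edgeR adjusted p = 0.0664), among AT-rich barcodes (edgeR adjusted p = 0.0707) and after thinning (edgeR adjusted p = 0.0795).

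Of 22 tested enzymes of amino acid synthesis and use, 8 fell (36.4%, against 16.2% of all genes) and 1 rose (4.55%, against 17.7%), with a median log2 fold change of -0.15. PSAT1, of serine synthesis, fell by 0.92 ± 0.16 (edgeR adjusted p = 2.06e-05) and was below all controls in 24 of 26 KO libraries. GPT2, the mitochondrial alanine transaminase, fell by 0.92 ± 0.13 (edgeR adjusted p = 6.96e-07) and was below all controls in 20. ALDH18A1, which starts proline synthesis, was the member that rose (0.22 ± 0.06, edgeR adjusted p = 0.0045), a call lost after thinning (0.21, edgeR adjusted p = 0.102).

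Of 31 tested genes of amino acid sensing by mTORC1, 7 rose (22.6%, against 17.7% of all genes) and 3 fell (9.68%, against 16.2%), with a median log2 fold change of 0.04. RRAGD, a Rag GTPase that brings mTORC1 to the lysosome, rose by 1.26 ± 0.18 (edgeR adjusted p = 1e-06) and was above all controls in 22 of 26 KO libraries. BMT2 (SAMTOR), the sensor of S-adenosylmethionine, rose by 0.44 ± 0.11 (edgeR adjusted p = 0.0027). RPTOR, the scaffold of mTORC1, fell by 0.38 ± 0.10 (edgeR adjusted p = 0.00339) and WDR59, of the GATOR2 complex, by 0.21 ± 0.06 (edgeR adjusted p = 0.00954). No KO library was below all controls in either gene. The RPTOR levels in KO libraries, 2.98 to 4.11 log2 CPM, lay within the Control range of 2.63 to 4.16. The call of WDR59 was lost after thinning (-0.14, edgeR adjusted p = 0.37).

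Of 14 tested genes of the response to amino acid shortage through the kinase GCN2 and the factor ATF4, 4 fell (28.6%, against 16.2% of all genes) and the other 10 did not pass, with a median log2 fold change of -0.10. STC2, a secreted glycoprotein, fell by 2.24 ± 0.28 (edgeR adjusted p = 9.73e-08) and was below all controls in 25 of 26 KO libraries. DDIT4, an inhibitor of mTORC1, fell by 0.98 ± 0.24 (edgeR adjusted p = 0.002) with 4 KO libraries below all controls, and stood at -1.54 among AT-rich barcodes (edgeR adjusted p = 0.000503). Of 11 tested genes of glutathione and cystine handling, 4 fell (36.4%, against 16.2% of all genes) and the other 7 did not pass, with a median log2 fold change of -0.08. CHAC1 is in both of these lists and counts among the 4 of each. The largest falls in the glutathione list were those of CHAC1, which degrades glutathione (-0.49 ± 0.19, edgeR adjusted p = 0.0455), and NFE2L2, the oxidant-responsive factor NRF2 (-0.23 ± 0.06, edgeR adjusted p = 0.00377). The call of NFE2L2 was lost after thinning (-0.22, edgeR adjusted p = 0.0751). That of CHAC1 was lost with library size alone (edgeR adjusted p = 0.0711), without a filter on low counts (edgeR adjusted p = 0.0949) and in 24 of the 37 fits with a library left out (edgeR adjusted p of at most 0.0963), while among AT-rich barcodes CHAC1 stood at -0.82 (edgeR adjusted p = 0.00445).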

How the data were processed

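Bulk SCRB-seq of 37 K562 libraries, 26 KO and 11 Control, was analysed. The authors processed reads with zUMIs (version not given in the sources used here), mapped them to hg38 with STAR (2.6.0a per the submitters' processing notes), summed UMIs over genes as annotated in Ensembl GRCh38.84 and deposited the UMI counts by Ensembl identifier, without normalization. Whether counting used strand is not given in the sources used here. UMIs remove PCR copies, and 3′ reads make counts independent of transcript length. Each column was matched to its sample by its barcode, and 0 columns belonged to other samples. Symbols were paired with 31323 of 32055 identifiers. Positions are those of GENCODE v44 on GRCh38, later than the annotation counted.

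KO and Control counts were compared by the quasi-likelihood test of edgeR 4.0.16 (R 4.3.3) after its default filter and TMM scaling. The robust fit had no term but group, and p-values were adjusted over 10661 genes after Benjamini and Hochberg. The study used limma, which is an alternative here because the values are counts. A gene passed at an adjusted p below 0.05. Standard errors were obtained by dividing the size of the log2 fold change by the root of its F statistic. The filter asked for 4.39 CPM in at least 11 libraries. The procedure was tested on simulated counts with independent libraries and the same variation for every gene. That test does not cover genes of larger variation or libraries that fall into blocks. No library was merged. Among 380 pairs within groups the chi-square per degree of freedom ran from 1.14 to 8.77. Repeats of the same RNA also give low values, so these values do not show that the libraries are independent.

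The members and lists were chosen with earlier results of these data known. Named are all members that passed, a list of members named whatever they did, and per list the 2 largest rises and falls among the genes that passed. SLC6A19, SLC6A16, SLC6A14, SLC6A13 and SLC1A3 fall outside that rule and were named after their values were seen. Barcodes were classed by their G and C bases (of 6) as AT-rich, at most 2 (12 KO, 8 Control), GC-rich, at least 4 (12 KO, 1 Control), or balanced (2 and 2). Only the AT-rich class held enough libraries of both groups for a test. Alternatives were limma-voom (limma 3.58.1), DESeq2 1.42.0, RLE factors, library size alone, no filter, a minimum mean of 10 CPM, the barcode class as a covariate, the AT-rich libraries alone, thinning to the smallest total, each library left out, an adjusted p below 0.01 and a prior count of 2.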

Additional observations from a re-analysis of the deposited data

How the results depend on the processing

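Of 354 fold changes of single genes under another setting, 325 kept their direction and their side of the threshold, 21 lost a call, 1 gained a call and 7 turned direction. Of 1358 with a library left out, 1296 were the same, 44 lost a call and 18 turned direction. With a prior count of 2 the p-values were those of the main fit, so no call could be lost or gained there. Genes that fell out of a test had no value and were not counted as lost calls. Among them were SLC7A2 and SLC36A4 at a minimum mean of 10 CPM, among AT-rich barcodes and after thinning, and SLC6A9 after thinning. The turns were in genes that had not passed: SLC6A19 became 0.038 with DESeq2, 0.004 with library size alone, 0.18 with barcode class as covariate, 0.67 among AT-rich barcodes, 0.17 after thinning, 0.034 with a prior count of 2 and -0.127 to 0.085 with a library left out, and SLC7A11 became -0.15 among AT-rich barcodes. SLC7A5, SLC38A1, SLC38A6, SLC6A9, SLC7A1 and SLC38A10 kept their calls in all 37 fits with a library left out. SLC36A4 did too, but only a high KO group could bring it into the test, so this says nothing about its stability.

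Of the transporters, 7 passed among AT-rich barcodes (3 higher, and 3 with the fold, of 21 tested), 5 after thinning (2 higher, of 18 tested) and 7 at an adjusted p below 0.01 (2 of them lower). Smaller groups and lower depth leave fewer genes to test. The other settings, limma-voom, DESeq2, RLE, library size, both filters and the covariate, kept the transporter counts within 1.5 times of 11, and leaving out a library, KO 18 included, gave 9 to 11. Among the lists, carriers that fell numbered 0 with library size alone, with no filter and among AT-rich barcodes, and 0 to 2 with a library left out. Synthesis enzymes that rose numbered 2 with DESeq2, RLE, a mean of 10 CPM, the covariate and AT-rich barcodes, 3 with library size alone, and 1 to 2 with a library left out. Of the GCN2 and ATF4 list, 1 rose with DESeq2, library size alone and no filter (0 to 1 with a library left out), and 2 fell at a mean of 10 CPM and 7 among AT-rich barcodes. Of the glutathione list, 1 rose with DESeq2 and library size alone (0 to 1 with a library left out), and 2 fell with library size alone and no filter (2 to 4 with a library left out). No share over all genes is given for any of these settings, so these counts have no like background. The cause of these changes was not tested.

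No paired analysis was possible because the labels give no replicate numbers. Correlations of SLC3A2 with its light chains were planned and are not given, since the KO libraries fall into separate sets. Depth limits the low genes: SLC7A2 and SLC36A4 rest on at most 41 UMIs per library.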

Other observations

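SLC6A13, a carrier of GABA and taurine that was too low for the test, had 0 to 5 UMIs in the Control libraries (median 1) and 0 to 17 in the KO libraries (median 4), which were mostly shallower. It reached 4.39 CPM in 4 KO libraries and in no Control library. SLC6A16, an orphan member of the same family, had 0 to 5 UMIs in Control (median 2) and 0 to 10 in KO libraries (median 3). The number of tested transporters above the range of all Control libraries ran from 2 in KO 18 to 10 in KO 8, 11 and 12, and the number below it from 0 in KO 11 to 9 in KO 16.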
